A study of Mus musculus with 10 samples.

Results

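Expression of 9 chemokine receptor genes, Ccr1, Ccr1l1, Ccr2, Ccr3, Ccr7, Ccrl2, Xcr1, Cx3cr1 and Cxcr4, was examined in bone marrow-derived macrophages (BMDMs) of mice with and without the Rac2 gene. Each of the 9 genes had 1 array feature that the platform annotation gives to that symbol alone, out of 19935 genes named this way on the array. The array set comprised 5 arrays of Rac2-/- BMDMs and 5 of WT BMDMs, numbered 1 to 5 in each group, and the design text speaks of 5 mice of each genotype. The labels describe male C57BL mice, and the methods add that the strain was C57BL/6J and that littermates served as controls. No age is given in the sources used here. Marrow cells of both groups were grown in MCSF, the growth factor that drives macrophage differentiation, at 50 ng/ml for 7 days with 20% FBS and 16% oxygen, and were taken on day 8 according to the labels. The deletion is present in every cell of the mouse, so the marrow precursors lacked Rac2 as well as the macrophages grown from them. The labels put the share of cells positive for Mac1, a myeloid integrin, at 80% or more. The methods give a higher minimum for marrow cultures on day 7, counted with a second macrophage marker as well. The labels do not tie an array to an animal of its own. The p-values therefore rest on the spread among arrays, which can be in part technical.

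Chemokine receptors are seven-helix membrane proteins that couple to inhibitory G proteins and steer leukocytes along gradients of chemokines, small secreted proteins. Rac GTPases act downstream of these receptors, where they drive actin polymerization at the leading edge of the moving cell. Macrophages and their monocyte precursors are known for Ccr1, Ccr2 and Cx3cr1, whereas Ccr7, Ccr3 and Xcr1 are better known from mature dendritic cells, eosinophils and cross-presenting dendritic cells.

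Values are log2 RMA signals, and differences are Rac2-/- minus WT on this scale, so a difference of -1 is a value 2 times lower in Rac2-/- BMDMs. Signals of different genes come from different probes and were not compared with each other. The deleted gene itself was at 7.10 ± 0.29 in Rac2-/- arrays, against 12.10 ± 0.27 in WT arrays (SD, n = 5 each), with no overlap between the 6.80 to 7.54 of Rac2-/- and the 11.81 to 12.42 of WT (difference -5.003, SE 0.17, limma with Benjamini-Hochberg adjustment, adjusted p = 7.73e-07). The 12 macrophage markers averaged 12.03 to 12.30 per Rac2-/- array and 12.05 to 12.28 per WT array. Among them the mannose receptor gene Mrc1 was higher in Rac2-/- BMDMs (difference 0.66, SE 0.08, adjusted p = 0.00352). The integrin gene Itgam (0.33, adjusted p = 0.0559) and the Fc receptor gene Fcgr1 (-0.74, adjusted p = 0.123) did not pass in the same limma fit. Both passed in a fit that blocks on array number (adjusted p = 0.038 and 0.0449). Both also passed with a term for arrays 1 and 2 against 3 to 5 (adjusted p = 0.00686 and 0.015). Arrays 1 and 2 of both groups formed a set apart from arrays 3 to 5 (correlation between arrays 0.974 to 0.996 within these sets and 0.934 to 0.955 between them). Arrays 3 and 4 of a group were also close to each other, with an SD of their log2 differences of 0.243 for Rac2-/- and 0.187 for WT, against 0.230 to 0.666 for the other pairs of one group. Counting arrays 3 and 4 of each group once, as their mean, was therefore added as an alternative after the data were seen.

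Lower signals in Rac2-/- BMDMs were found for Ccr7, Ccr1l1 and Ccrl2, by 1.51 to 1.89 times, while none of the receptor genes was called higher in the fit over all 10 arrays without a block or batch term. All 3 genes had every Rac2-/- array below every WT array. Of the other 6 genes, Ccr1, Ccr2 and Ccr3 had lower means and Xcr1, Cx3cr1 and Cxcr4 higher means in Rac2-/- BMDMs. None of these 6 passed the test, although Ccr3, Xcr1 and Cx3cr1 had an unadjusted p under 0.05. The share of all features with such an unadjusted p was not counted. The test was limma with Benjamini-Hochberg adjustment over all features kept by a filter on low signals, with a threshold of 0.05, and all 9 receptor genes passed that filter. It called 3 of 9 receptor genes, against 1.9% of all features tested. All 3 were lower, against 1.11% of features called lower, and 0 of 9 were higher, against 0.795% of features. Groups did not overlap, with Rac2-/- lower, for 3 of 9 receptor genes, against 2.34% of all features tested. The median difference was -0.36 over the 9 genes and -0.000341 over all features tested. The 9 genes were chosen with earlier results of these data known, so these comparisons do not measure an enrichment.

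The replicate numbers were taken to pair the arrays, an assumption that the labels do not state. A fit with these numbers as a block called 4 of 9 receptor genes, against 6.35% of all features tested. Xcr1 joined as higher in Rac2-/- BMDMs. With arrays 3 and 4 of each group averaged, 0 of 9 were called, and 98 features in all. The count was 1 of 9 when Rac2-/- array 2, Rac2-/- array 4, WT array 2, WT array 3 or WT array 5 was left out.

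**Figure D1:**
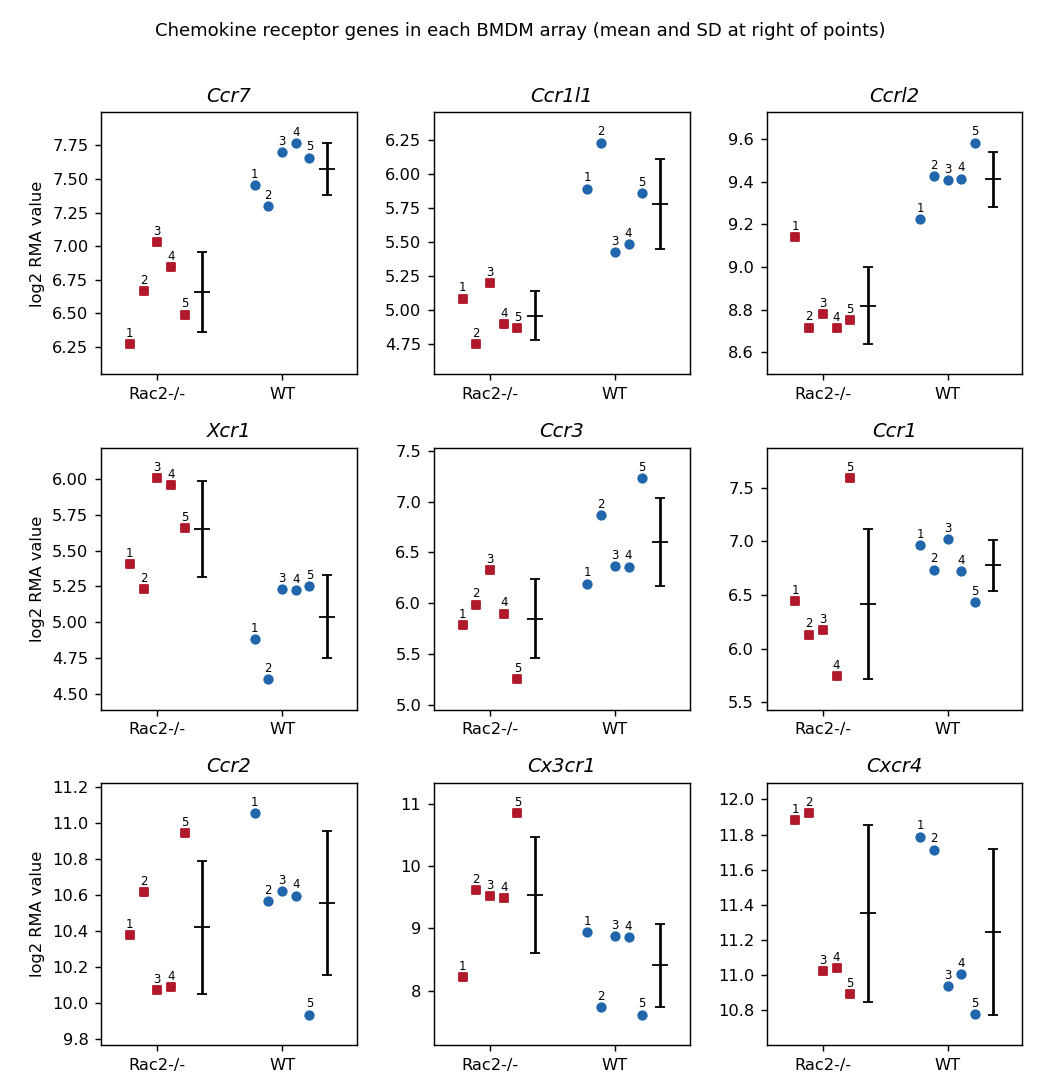
Log2 RMA signal (vertical axes, a separate range for each gene) of the 9 receptor genes in each Rac2-/- array (squares) and WT array (circles), with the array number beside each point and the mean and SD (n = 5) at the right of each group. All Rac2-/- arrays lie below all WT arrays for Ccr7, Ccr1l1 and Ccrl2, and arrays 1 and 2 of both groups lie above the other arrays for Cxcr4.

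Ccr7, the receptor for Ccl19 and Ccl21 that guides maturing dendritic cells and lymphocytes into lymph nodes, had the smallest adjusted p of the 9 genes. Its log2 signal was 6.27, 6.67, 7.03, 6.85 and 6.49 in Rac2-/- arrays 1 to 5, and 7.45, 7.30, 7.70, 7.77 and 7.66 in WT arrays 1 to 5. The highest Rac2-/- array, 7.03, lay below the lowest WT array, 7.30. The means of 6.66 ± 0.30 in Rac2-/- and 7.58 ± 0.20 in WT (SD, n = 5 each) gave a difference of -0.91 (SE 0.15, 95% interval -1.25 to -0.58, limma with Benjamini-Hochberg adjustment, adjusted p = 0.0141), or a signal 1.89-fold higher in WT. The difference was close within both sets of arrays, -0.91 over arrays 1 and 2 and -0.92 over arrays 3 to 5. Ccr7 was no longer called when WT array 3 was left out (adjusted p = 0.0506) or with arrays 3 and 4 averaged (difference -0.94, adjusted p = 0.071).

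Of the Ccr7 ligands, Ccl19 had a mean of 8.70 in Rac2-/- and 8.89 in WT arrays, a difference of -0.19 (SE 0.38, adjusted p = 0.999), and Ccl21a was not read because its feature is shared with other Ccl21 genes. The 5 markers of mature dendritic cells that could be tested averaged 6.92 to 7.22 per Rac2-/- array and 7.24 to 7.52 per WT array. These ranges did not overlap. The averages of the 6 mast cell and basophil markers tested and of the 15 receptor ligands tested did not overlap either. Such a gap is therefore not particular to markers of mature dendritic cells. Among the 5 markers of mature dendritic cells, 4 had lower means and 1 a higher mean in Rac2-/- BMDMs. The chemokine gene Ccl22 was lower (difference -0.49, SE 0.10, adjusted p = 0.0466, and 0.0546 to 0.121 with any 1 array left out). Fscn1 (-0.20), Cd83 (-0.83), Il12b (-0.28) and Relb (0.19) did not pass. The part of such cells in the Ccr7 difference was not tested. In a bulk sample, fewer cells of a type and less RNA per cell cannot be told apart.

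Ccr1l1, Xcr1, Ccr1, Ccr3 and Ccr2 belong to one cluster of receptor genes on chromosome 9, where they follow each other in the order Xcr1, Ccr1, Ccr1l1, Ccr3 and Ccr2 after Ccr9, Fyco1 and Cxcr6. The 250 bases before the start of Ccr1l1 and of Xcr1, a pair of cluster members whose signals differed in opposite directions between the groups, are shown with those of Ccrl2, which lies elsewhere on the same chromosome. The sequences come from a set of promoter windows for RefSeq genes in the mouse build GRCm38.p6. The set used here held 8 of the 9 receptor genes and had no entry for Ccr7. All 3 genes lie on the minus strand and are written 5' to 3' on their own strand, at chr9:123986716-123986965 for Ccr1l1, chr9:123862030-123862279 for Xcr1 and chr9:111057519-111057768 for the first of 3 listed starts of Ccrl2. Capitals mark a match to TTCNNNGAA, the letters bound by STAT factors.
Ccr1l1: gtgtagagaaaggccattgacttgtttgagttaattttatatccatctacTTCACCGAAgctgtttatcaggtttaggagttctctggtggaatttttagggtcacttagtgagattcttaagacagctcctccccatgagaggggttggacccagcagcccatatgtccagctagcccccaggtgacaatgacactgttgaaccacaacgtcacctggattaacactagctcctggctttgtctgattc
Xcr1: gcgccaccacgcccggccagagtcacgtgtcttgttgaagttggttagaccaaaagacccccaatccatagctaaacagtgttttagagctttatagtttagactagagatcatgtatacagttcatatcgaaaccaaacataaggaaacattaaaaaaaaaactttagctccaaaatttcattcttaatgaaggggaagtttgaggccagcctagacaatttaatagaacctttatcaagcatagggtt
Ccrl2: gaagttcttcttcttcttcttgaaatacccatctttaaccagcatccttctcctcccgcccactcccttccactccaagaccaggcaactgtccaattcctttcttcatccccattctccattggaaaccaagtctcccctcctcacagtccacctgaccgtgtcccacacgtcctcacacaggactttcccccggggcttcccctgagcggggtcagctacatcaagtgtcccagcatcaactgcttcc

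Motifs were searched on both strands of the 250 bases. The STAT letters TTCNNNGAA were found once in Ccr1l1, as TTCACCGAA from 200 to 192 bases before the start, and 7.02% of all 32851 windows of this length held such a match. The letters GAGGAA, the core of PU.1 sites, were found in Ccr1 and Ccr3 (23.3% of all windows), and TGANTCA, bound by AP-1, was found in Ccr3 (6.75% of all windows). GAAA, then NN, then GAAA, the core bound by interferon regulatory factors, was in none of the 8 genes (2.98% of all windows). Xcr1, Ccrl2, Ccr2, Cx3cr1 and Cxcr4 held none of the 4 motifs in these windows.

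Ccr1l1 encodes a receptor-like protein that resembles Ccr1 in sequence. Its signal was 5.08, 4.75, 5.19, 4.90 and 4.87 in Rac2-/- arrays 1 to 5, against 5.89, 6.23, 5.43, 5.49 and 5.86 in WT arrays 1 to 5. WT arrays 3 and 4 were the lowest of their group and still lay above every Rac2-/- array. The means were 4.96 ± 0.18 in Rac2-/- and 5.78 ± 0.33 in WT (SD, n = 5 each), a difference of -0.82 (SE 0.16, 95% interval -1.17 to -0.47, limma with Benjamini-Hochberg adjustment, adjusted p = 0.0286), or 1.77-fold higher in WT. The difference was -1.14 over arrays 1 and 2 and -0.60 over arrays 3 to 5. In limma fits on either set alone Ccr1l1 did not pass (adjusted p = 0.267 and 0.0652). Ccr1l1 missed the threshold with arrays 3 and 4 averaged (difference -0.92, adjusted p = 0.0797). It also missed without Rac2-/- array 2, 4 or 5 or WT array 1, 2 or 5 (adjusted p = 0.0504 to 0.0831). The Rac2-/- arrays were near the low end of the features kept, the lowest of which had a fourth-highest value of 4.73, and whether the Ccr1l1 probes also bind Ccr1 RNA was not tested.

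Ccr1, the neighbour of Ccr1l1 and a receptor for Ccl3, Ccl5, Ccl6 and Ccl9, did not pass the test. It was at 6.45, 6.13, 6.17, 5.74 and 7.59 in Rac2-/- arrays 1 to 5 and at 6.97, 6.74, 7.02, 6.72 and 6.43 in WT arrays 1 to 5. Rac2-/- array 5 was above all WT arrays and the other 4 Rac2-/- arrays lay below WT arrays 1 to 4, so the groups overlapped. The difference was -0.36 (SE 0.30, 95% interval -1.02 to 0.30, adjusted p = 0.895). Without Rac2-/- array 5 it was -0.65 (adjusted p = 0.11).

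Ccr3, the eotaxin receptor for Ccl11 and Ccl24 known from eosinophils, was at 5.79, 5.99, 6.32, 5.90 and 5.25 in Rac2-/- arrays 1 to 5 and at 6.19, 6.87, 6.36, 6.36 and 7.23 in WT arrays 1 to 5. Every Rac2-/- array was below the WT array of the same number, by 0.04 to 1.98, but Rac2-/- array 3 was above WT array 1. The difference of -0.75 (SE 0.24, 95% interval -1.28 to -0.23) did not pass the test (adjusted p = 0.2, and 0.158 with the replicate block), and among the alternatives passed only after ComBat (adjusted p = 0.0323). The 4 eosinophil markers tested averaged 5.81 to 6.40 per Rac2-/- array and 5.83 to 6.21 per WT array, and none passed. The 6 markers of mast cells and basophils that were tested averaged 5.45 to 5.68 per Rac2-/- array and 5.84 to 6.55 per WT array. Hdc, which makes histamine, was the one of them that passed (difference -0.49, SE 0.09, adjusted p = 0.0185, and 0.0542 to 0.0615 without Rac2-/- array 3, WT array 3 or WT array 4). The part of these cells in the Ccr3 difference was not tested.

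Ccr2, the receptor for Ccl2, Ccl7 and Ccl12 that monocytes need to leave the marrow, showed no detectable difference. It was at 10.38, 10.62, 10.07, 10.09 and 10.94 in Rac2-/- arrays 1 to 5, against 11.06, 10.57, 10.62, 10.60 and 9.94 in WT arrays 1 to 5. The array numbered 5 was the highest of the Rac2-/- group and the lowest of the WT group. The difference was -0.13 (SE 0.22, 95% interval -0.63 to 0.36, adjusted p = 0.999). The 4 monocyte markers tested averaged 8.83 to 9.997 per Rac2-/- array and 8.14 to 10.58 per WT array. Plac8 was lower in Rac2-/- BMDMs (difference -2.36, SE 0.44, adjusted p = 0.0257, and 0.059 to 0.0771 without Rac2-/- array 4 or WT array 1, 2, 3 or 4), and F13a1 had a difference of 2.00 (SE 0.46, adjusted p = 0.0616).

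Xcr1, the receptor for Xcl1 that marks cross-presenting dendritic cells, was higher in each Rac2-/- array than in the WT array of the same number. Its signal was 5.41, 5.23, 6.004, 5.95 and 5.65 in Rac2-/- arrays 1 to 5 and 4.89, 4.60, 5.23, 5.22 and 5.25 in WT arrays 1 to 5. In both groups arrays 1 and 2 were the lowest. The groups met at the edge, with Rac2-/- array 2 at 5.23 and WT arrays 3 to 5 at 5.22 to 5.25, while the differences between arrays of one number were 0.40 to 0.77. The means of 5.65 ± 0.34 in Rac2-/- and 5.04 ± 0.29 in WT (SD, n = 5 each) differed by 0.61 (SE 0.18, 95% interval 0.20 to 1.02), which did not pass the unpaired test (adjusted p = 0.173). Blocked by array number, the SE was 0.07 and Xcr1 passed (adjusted p = 0.00877, limma with Benjamini-Hochberg adjustment), in a fit that called 3.32% of all features higher in Rac2-/- BMDMs. The difference was 0.57 over arrays 1 and 2 and 0.63 over arrays 3 to 5. With arrays 3 and 4 averaged and no block it was 0.58 (adjusted p = 0.475).

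Xcl1, the ligand of Xcr1, was at a mean of 5.30 in Rac2-/- and 5.39 in WT arrays (difference -0.09, SE 0.08, adjusted p = 0.923). Of 8 markers of cross-presenting dendritic cells, 7 were tested, and 0 passed with or without the block. The 7 averaged 7.33 to 7.62 per Rac2-/- array and 7.39 to 7.47 per WT array. Clec9a, the defining one of these markers, was below the filter, at 3.77 to 4.09 in Rac2-/- and 4.17 to 5.32 in WT arrays. For Clec9a, no Rac2-/- array reached a WT array, a pattern that 2.34% of all features tested showed. Its difference of -0.80 did not pass in a limma fit without the filter (adjusted p = 0.2). Of the 7 tested markers, 3 had lower and 4 had higher means in Rac2-/- BMDMs. The part of such cells in the Xcr1 difference was not tested.

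The genes around these receptors on chromosome 9 did not move as one. Ccr9, a homing receptor of lymphocytes for the small intestine, had means of 5.11 in Rac2-/- and 6.16 in WT arrays, a difference of -1.05 (SE 0.31), not past the test without the replicate block (adjusted p = 0.159) but past it with the block (adjusted p = 0.0281). Fyco1, an adaptor of vesicle transport, differed by -0.04 and Cxcr6, the receptor for Cxcl16, by -0.03. A longer stretch of the chromosome was taken from just before Ccrl2 to just past Ccr2. In it 115 genes were tested and had a median difference of -0.02. Members of the 9 receptor genes were left out, among them Ccr1l1 and Ccrl2, which lie in the stretch and were called lower. Of the 115 genes, 0 were called lower and 1 higher, against 1.11% and 0.795% of all features tested. The 1 was the microtubule-binding gene Clasp2 (difference 0.42, adjusted p = 0.0429, and 0.0368 to 0.115 with 1 array left out, past the threshold only without Rac2-/- array 1). With the block 2 were called lower and 2 higher, against 3.03% and 3.32% of all features. Lower were Ccr9 and Lars2 (-0.37, adjusted p = 0.465 without the block and 0.0387 with it). Higher were Clasp2 (adjusted p = 0.0228 with it) and Tgfbr2 (0.57, adjusted p = 0.179 and 0.0328).

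**Figure D2:**
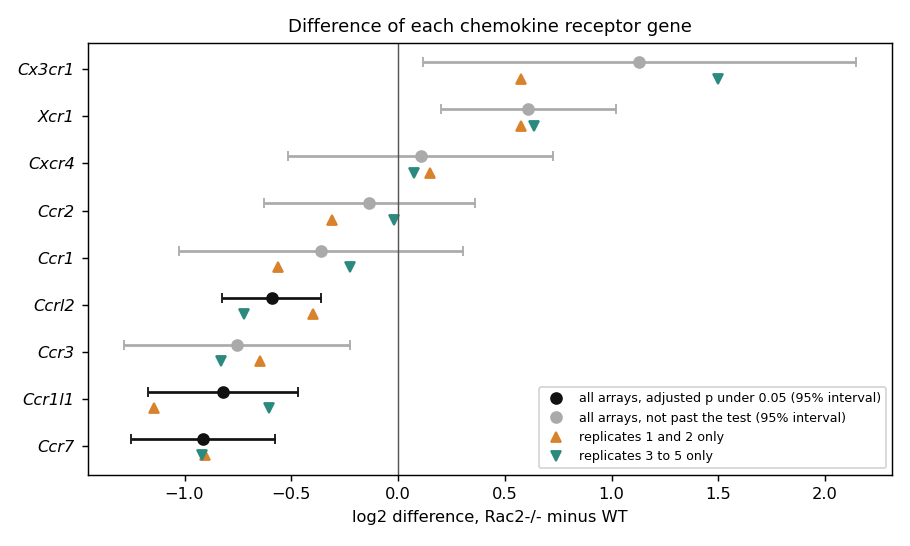
Difference of each receptor gene in log2 signal, Rac2-/- minus WT (horizontal axis), with its 95% interval over all 10 arrays (circles, black where the adjusted p was under 0.05 and grey where not), and the difference within arrays 1 and 2 (upward triangles) and within arrays 3 to 5 (downward triangles). All 9 genes have the same sign in both sets of arrays, and the intervals of Ccr7, Ccr1l1, Ccrl2 and Ccr3 lie below 0 and those of Xcr1 and Cx3cr1 above it.

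Cx3cr1, the receptor for the membrane-bound chemokine Cx3cl1 and a marker of patrolling monocytes and tissue macrophages, had the largest difference in means of the 9 genes and also the widest spread within either group. Its signal was 8.22, 9.62, 9.52, 9.49 and 10.84 in Rac2-/- arrays 1 to 5 and 8.94, 7.74, 8.88, 8.86 and 7.62 in WT arrays 1 to 5. Rac2-/- arrays 2 to 5 were above all WT arrays, whereas Rac2-/- array 1 was below WT arrays 1, 3 and 4. The means were 9.54 ± 0.93 in Rac2-/- and 8.41 ± 0.67 in WT (SD, n = 5 each), a difference of 1.13 (SE 0.46, 95% interval 0.12 to 2.14, limma with Benjamini-Hochberg adjustment, adjusted p = 0.389). Without Rac2-/- array 1 it was 1.46 (adjusted p = 0.112), and without Rac2-/- array 5 it was 0.80 (adjusted p = 0.6). Cx3cl1 was at 6.22 in Rac2-/- and 6.26 in WT arrays (difference -0.04, adjusted p = 0.999).

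Cxcr4, the receptor for Cxcl12 that holds blood-forming cells and neutrophils in the marrow, differed more between the sets of arrays than between the genotypes. It was at 11.88, 11.92, 11.02, 11.04 and 10.89 in Rac2-/- arrays 1 to 5, against 11.79, 11.71, 10.94, 11.01 and 10.78 in WT arrays 1 to 5. Arrays 1 and 2 of both groups lay at 11.71 to 11.92 and arrays 3 to 5 at 10.78 to 11.04. Cxcr4 was the only one of the 9 genes in which these sets did not overlap, and they differed by 0.88 in their means. Between the groups the difference was 0.11 (SE 0.28, 95% interval -0.52 to 0.73, adjusted p = 0.999). Each Rac2-/- array was above the WT array of its number, by 0.03 to 0.21, and with the replicate block the SE was 0.06 (adjusted p = 0.351). Cxcl12 had means of 5.79 in Rac2-/- and 6.04 in WT arrays (difference -0.25, SE 0.11, adjusted p = 0.438).

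Ccrl2, an atypical receptor that binds the chemoattractant chemerin without signalling and presents it to the receptor Cmklr1, was lower in Rac2-/- BMDMs. Its signal was 9.14, 8.72, 8.78, 8.71 and 8.75 in Rac2-/- arrays 1 to 5, against 9.22, 9.43, 9.41, 9.41 and 9.58 in WT arrays 1 to 5. Rac2-/- array 1 stood above the rest of its group, and even so no Rac2-/- array reached a WT array. The means of 8.82 ± 0.18 in Rac2-/- and 9.41 ± 0.13 in WT (SD, n = 5 each) differed by -0.59 (SE 0.10, 95% interval -0.83 to -0.36, limma with Benjamini-Hochberg adjustment, adjusted p = 0.0197), or 1.51-fold higher in WT. The difference was -0.40 over arrays 1 and 2 and -0.72 over arrays 3 to 5. Ccrl2 missed the threshold with arrays 3 and 4 averaged (difference -0.57, adjusted p = 0.155). It also missed without Rac2-/- array 2, 3 or 4 or WT array 2, 3, 4 or 5 (adjusted p = 0.0535 to 0.0632). Without Rac2-/- array 1 the adjusted p was 0.00453.

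The partners of Ccrl2 showed no detectable difference. Cmklr1, the signalling chemerin receptor, was at 10.71 ± 0.68 in Rac2-/- and 10.78 ± 0.66 in WT arrays (SD, n = 5 each), with a difference of -0.07 (SE 0.38, adjusted p = 0.999). Rarres2, which encodes chemerin, was at 5.55 in Rac2-/- and 5.62 in WT arrays (difference -0.07, SE 0.13, adjusted p = 0.999). Of the 7 genes for atypical chemokine receptors and for the chemerin system besides Ccrl2, 0 passed with or without the block, with a median difference of 0.05.

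**Figure D3:**
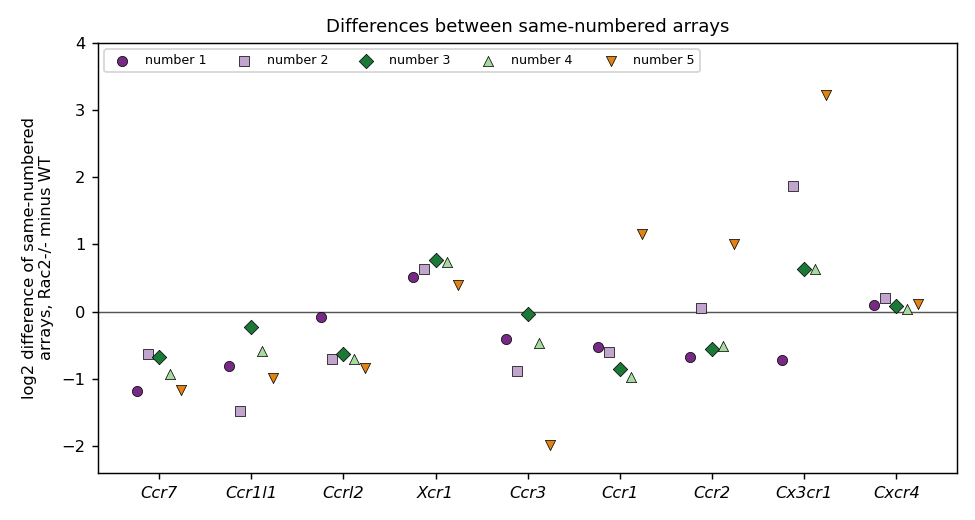
Difference in log2 signal between the Rac2-/- array and the WT array of each number (vertical axis, Rac2-/- minus WT), 1 point for each of the 5 numbers and each receptor gene. The 5 points lie on one side of 0 for Ccr7, Ccr1l1, Ccrl2, Ccr3, Xcr1 and Cxcr4, and number 5 lies farthest from 0 for Ccrl2 (-0.83), Ccr3 (-1.98), Ccr1 (1.16), Ccr2 (1.01) and Cx3cr1 (3.23).

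Set beside each other by number, Ccr7, Ccr1l1, Ccrl2 and Ccr3 had all 5 differences with Rac2-/- lower, and Xcr1 and Cxcr4 with Rac2-/- higher. The share of all features with such a pattern was not counted, so it cannot be called particular to these genes. For the other 3 genes, Ccr1, Ccr2 and Cx3cr1, number 5 gave the largest difference, 1.16, 1.01 and 3.23, and so it did for Ccr3, at -1.98, and Ccrl2, at -0.83. Rac2-/- array 5 was the highest of its group for Ccr1, Ccr2 and Cx3cr1 and the lowest for Ccr3. It also had the highest signal of Mki67, a gene of dividing cells, at 10.51, against 6.85 to 7.82 in the rest of its group and 5.85 to 7.45 in WT arrays. Without Rac2-/- array 5 the differences were -0.65 for Ccr1, -0.27 for Ccr2, 0.80 for Cx3cr1 and -0.61 for Ccr3, and none of these 4 genes passed (adjusted p = 0.11, 0.918, 0.6 and 0.338). The part of dividing cells in these values was not tested.

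Some genes followed the profiles of the called receptors closely. Likeness was taken as the root mean square difference over the 10 arrays between log2 signals, each gene centred on its own mean. Ccr7 was followed most closely by Enpp4 (0.142), Mov10 (0.15) and H2-M3 (0.159), where its own values lay 0.509 from their mean. Closest to Ccr1l1 (0.473 from its mean) were Igsf9 (0.163), Gpr55 (0.182) and Fam3b (0.183). For Ccrl2 (0.328) they were the tryptophanyl-tRNA synthetase gene Wars (0.0826), Fbxw17 (0.0949) and Plekho2 (0.0964), and for Xcr1 (0.414) they were Kank2 (0.0752), Fchsd2 (0.0982) and the adenylyl cyclase gene Adcy9 (0.126).

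Ligands of the 9 receptors leaned lower in Rac2-/- BMDMs, with lower means for 13 of 15 tested and a median difference of -0.19, where 50.1% of all features tested had a lower mean. The test called 2 of 15 lower, both of them Ccr2 ligands, and 0 higher, against 1.11% and 0.795% of all features tested. With the replicate block it called 4 of 15 lower, against 3.03% of all features. The lists of ligands and signalling genes were chosen with earlier results of these data known. Ccl7 was at 8.24 ± 0.22 (7.91 to 8.46) in Rac2-/- and 9.86 ± 0.50 (9.33 to 10.44) in WT arrays (SD and range, n = 5 each), a difference of -1.62 (SE 0.22, limma with Benjamini-Hochberg adjustment, adjusted p = 0.0058). It passed in all 10 fits that leave out an array and with arrays 3 and 4 averaged (adjusted p = 0.0459). Ccl2 differed by -1.35 (SE 0.27, adjusted p = 0.0298, and 0.174 with arrays 3 and 4 averaged), with Rac2-/- arrays at 7.66 to 8.99 and WT arrays at 9.24 to 10.27. It missed the threshold without Rac2-/- array 1, 3 or 4 or WT array 2, 3, 4 or 5 (adjusted p = 0.0554 to 0.0869).

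Ccl12, a further Ccr2 ligand of mice, was at 5.55 to 8.41 in Rac2-/- and 7.37 to 10.23 in WT arrays, a difference of -1.78 (SE 0.69), not past the test without the replicate block (adjusted p = 0.354) but past it with the block (adjusted p = 0.000294). Ccl8, listed here because human CCL8 binds CCR1, CCR2 and CCR3, had a difference of -1.76 (SE 0.50, adjusted p = 0.139, and 0.0295 with the block). The Ccr1 ligands Ccl3 (-0.39) and Ccl5 (-0.83) did not pass (adjusted p = 0.0778 and 0.376), nor did Ccl6 (-0.04) and Ccl9 (0.03). For Ccl3 and Ccl5 no Rac2-/- array reached a WT array, a pattern of 2.34% of all features tested, whereas the groups overlapped for Ccl6 and Ccl9. With a term for arrays 1 and 2 against 3 to 5 in the limma fit, Ccl3 passed (adjusted p = 0.0145) and Ccl5 did not (adjusted p = 0.167). The eotaxin Ccl24, a Ccr3 ligand, was at 6.37 to 8.27 in Rac2-/- and 5.78 to 6.04 in WT arrays (difference 0.91, SE 0.33, adjusted p = 0.303), and without Rac2-/- array 5 its difference was 0.54 (adjusted p = 0.0158). Ccl11, the other Ccr3 ligand listed, had a difference of -0.14 (adjusted p = 0.795). Ccr2 itself, whose ligands Ccl2 and Ccl7 were called lower, had a 95% interval of -0.63 to 0.36.

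Among 8 other chemokine receptor genes tested, 0 were called in either direction, and Ccr9 alone was called with the replicate block. An unadjusted p under 0.05 was found for 2 of the 8, a share not counted over all features. The median difference of the 8 genes was -0.03. Cxcr3, the receptor for interferon-induced chemokines, was at 8.98 to 9.25 in Rac2-/- and 8.72 to 8.97 in WT arrays, without overlap, but with a difference of only 0.24 (SE 0.08, adjusted p = 0.286, and 0.0595 with the block). Ccr8 and Cxcr5 were below the filter.

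Of 29 genes that carry the signal from chemokine receptors into the cell, 1 was called lower and 1 higher. Over all features tested these shares were 1.11% lower and 0.795% higher. With the replicate block 3 were called lower and 4 higher, against 3.03% and 3.32% of all features. Both genes called without the block act on the receptors and their G proteins. Rgs1, which shortens G protein signals and dampens chemokine responses, was at 5.997 to 7.72 in Rac2-/- and 7.92 to 9.22 in WT arrays, a difference of -1.64 (SE 0.33, limma with Benjamini-Hochberg adjustment, adjusted p = 0.0352, and 0.196 with arrays 3 and 4 averaged). It missed the threshold without Rac2-/- array 1, 3 or 4 or WT array 2, 3, 4 or 5 (adjusted p = 0.0627 to 0.102). Grk5, a kinase that phosphorylates active receptors and so turns them off, was higher, at 8.12 to 8.74 in Rac2-/- and 7.53 to 7.90 in WT arrays (difference 0.80, SE 0.13, adjusted p = 0.0136). Grk5 passed in all 10 fits that leave out an array and missed with arrays 3 and 4 averaged (adjusted p = 0.103).

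With the block but not without it, the kinase gene Grk3 (difference 0.69, adjusted p = 0.0625 without the block and 0.0127 with it), the beta-arrestin gene Arrb1 (0.51, adjusted p = 0.436 and 0.0073) and Pik3cg, the catalytic subunit of the lipid kinase that G proteins activate (0.41, adjusted p = 0.195 and 0.0271), were higher in Rac2-/- BMDMs. Lower with the block but not without it were Rgs14, a regulator of G proteins (-0.36, adjusted p = 0.388 and 0.0313), and Ptk2b, a tyrosine kinase that chemokines activate (-0.36, adjusted p = 0.132 and 0.0316). None of the 6 G protein subunit genes passed with or without the block, at differences of -0.03 for Gnai1, 0.02 for Gnai2, -0.07 for Gnai3, -0.07 for Gnb1, -0.01 for Gnb2 and 0.17 for Gng2. The median over the 29 genes was 0.02. Dock2, an activator of Rac downstream of chemokine receptors, differed by 0.23 (SE 0.17, adjusted p = 0.849).

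**Figure D4:**
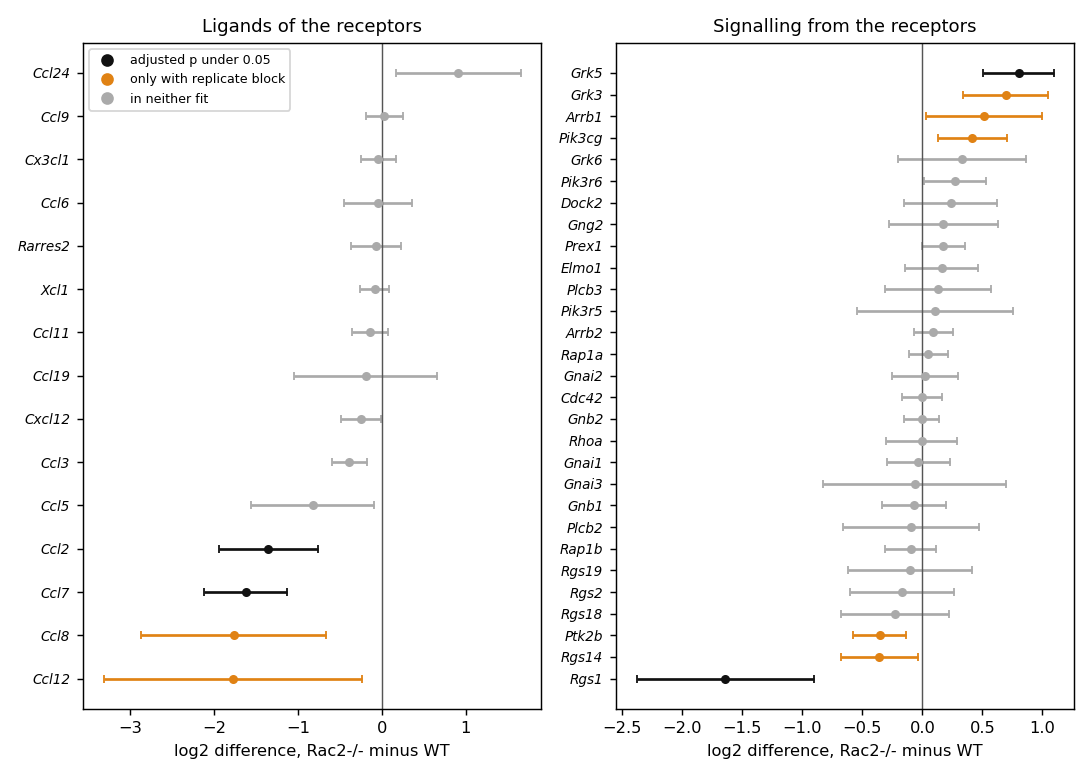
Difference in log2 signal, Rac2-/- minus WT (horizontal axes), with its 95% interval over 10 arrays, of 15 ligands of the receptors (left) and 29 signalling genes (right), black where the adjusted p was under 0.05, orange where it was so only with the replicate number as a block, and grey in neither. Ccl7 and Ccl2 are the ligands called lower without the block, and Grk5 and Rgs1 lie at opposite ends of the signalling genes.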

How the data were processed

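Expression in 5 Rac2-/- and 5 WT BMDM samples was read on Affymetrix whole-transcript arrays for the mouse. The authors deposited log2 signals, obtained by RMA (background correction, quantile normalization across arrays and a summary of each feature's probes). The log base is inferred, not stated: the values ran from 1.69 to 13.7 with array medians of 6.07 to 6.14. The table holds 34760 features, so the filter to 27031 genes that the methods describe had not been applied. The methods also name ComBat without its batches. Whether it was applied before deposit, and with which software versions, the sources used here do not say.

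Features were named through the platform annotation, updated by Entrez identifier (21553) or accession (3), with 84 kept as given. 21640 features had a single symbol, 1321 several and 11799 were not listed. Features were ranked by their fourth-highest value and the top 27031 kept (lowest 4.73). Rac2-/- was compared with WT by limma 3.58.1 in R 4.3.3 (lmFit and eBayes, no block), with Benjamini-Hochberg adjustment over these features and a threshold of 0.05. The fit was tested on simulated data. The number of arrays limits the precision. No 2 arrays were identical (0 pairs).

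The receptor genes, the related gene lists and the cell type markers were chosen with earlier results of these data known. Named are the receptor genes, Rac2, members of the lists of receptors, ligands, signalling genes and chromosome 9 neighbours past the threshold with or without the replicate block, the ligands of such receptors, the neighbouring genes and, for each such receptor, the 3 genes of the most similar profile. Cell type markers past the threshold could be named too. Other genes and the ligands of the remaining receptors were named after their values were seen.

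After subtraction of the group means, arrays of one number correlated at 0.493 to 0.716 (5 pairs, each over 0.1). Numbers were taken as pairs. The split of arrays 1 and 2 from 3 to 5 can raise such values too, and different numbers were not compared this way. By the SD of log2 differences, WT arrays 1, 3 and 4 were nearest to the Rac2-/- array of their number. WT array 2 was nearer to Rac2-/- array 1 (0.395) than to array 2 (0.432). WT array 5 was nearer to Rac2-/- array 3 (0.365) than to array 5 (0.456). The pairing is an assumption, since the labels give no more than the numbers. A block was one alternative. The others were filters, a trended and robust variance, array weights, quantile normalization, median centring, the mean of a gene's features, a term for arrays 1 and 2 against 3 to 5, a split known from earlier results, or ComBat on them (its published parametric form, written in R), each set alone, leaving out each array, and averaging arrays 3 and 4, chosen after seeing the data. Promoter windows came from RefSeq (GRCm38.p6). Coordinates of other genes are not given, as the build of the array annotation is not named.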

Additional observations from a re-analysis of the deposited data

Results flagged for a closer look

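For Ccrl2, the atypical chemerin-binding receptor, Rac2-/- array 1 was at a log2 signal of 9.14, against 8.71 to 8.78 in the other 4 Rac2-/- arrays. Its gap to the nearest array was 0.848 of the whole range of the group, which is above the 95% limit of Dixon's test for 5 samples. The test was run on 44 groups of 5 arrays, and chance marks about 1 in 20 groups. WT arrays were at 9.22 to 9.58, so this array lay nearer to WT array 1 (9.22) than to the rest of its own group. The cause was not tested.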

How the results depend on the processing

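The sign of the difference held for 8 of the 9 receptor genes under every alternative run, the exception being Cxcr4 (0.11), which ranged between -0.04 and 0.24 with an array left out and turned negative for Rac2-/- array 1 (-0.03), Rac2-/- array 2 (-0.0367) and WT array 5 (-0.01). The test called 514 features, 1716 with the replicate block, 2524 with the term for arrays 1 and 2 against 3 to 5, 4386 after ComBat, 1811 with array weights, 2 within arrays 1 and 2, 1487 within arrays 3 to 5 and 98 with arrays 3 and 4 averaged, an alternative chosen after seeing the data that leaves 4 values a group. Leaving out 1 array gave 245 (without WT array 3) to 625, and at most 322 without Rac2-/- array 2, 3 or 4 or WT array 2, 3, 4 or 5. Receptor genes called lower numbered 3, and 4 after ComBat, 2 within arrays 3 to 5 and 2 when only the brighter features were kept. They numbered 0 within arrays 1 and 2, 0 with arrays 3 and 4 averaged and 1 to 3 with an array left out. Receptor genes called higher numbered 0, and 1 (Xcr1) with the replicate block, the term, ComBat, array weights and within arrays 3 to 5. The block changed no call of another receptor gene.

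Other chemokine receptors called numbered 0, and 1 with the replicate block and 2 each with the term, ComBat and array weights. Ligands called numbered 2, and 4 with the block, 4 with the term, 5 after ComBat, 5 with array weights, 0 within arrays 1 and 2, 4 within arrays 3 to 5, 1 with arrays 3 and 4 averaged and 1 to 3 with an array left out. Signalling genes called numbered 2, and 7 with the block, 8 with the term, 10 after ComBat, 4 with array weights, 0 within arrays 1 and 2, 5 within arrays 3 to 5, 0 with arrays 3 and 4 averaged and 1 to 3 with an array left out. The causes were not tested, beyond the smaller number of arrays in fits that leave some out. Signals near the filter, as those of Ccr1l1 and Xcr1 in both groups, limit what the arrays can show, and neither gene was tested when only the brighter features were kept.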
